A study of Mus musculus with 19 samples.

Results

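Day 10 of heart muscle differentiation was set against day 7 in P19CL6 cells, a mouse embryonal carcinoma line that forms beating cardiomyocytes in culture. The genes described are those that the authors' deposited tables list at both days, 1285 of the 4213 genes listed at any day. A further 432 genes were listed at day 7 and 1005 at day 10 without a value on the other side, so they have no fold here. Each day was sampled as 4 libraries of total RNA made with a tag profiling kit, in which short tags, read after PCR, stand for transcripts. Both groups are the same line, differ only in the day of culture and carry no label for a treatment, and nothing in the labels says whether the libraries came from separate cultures. The deposited values are means over the 4 libraries of a day, at a mean depth of 5.84e+06 tags per library at day 7 and 5.72e+06 at day 10.

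Heart muscle arises from mesoderm that leaves the primitive streak, the structure at the posterior end of the early embryo where mesoderm and endoderm form. Cardiac progenitors then express regulators such as Gata4, a zinc finger transcription factor of heart and endoderm, and Isl1, a LIM homeodomain factor of second heart field progenitors, before they assemble sarcomeres. Cells of the same mesoderm also give rise to vessel lining, blood, smooth muscle and connective tissue. Egr1 and Fos, by contrast, belong to the immediate early genes, which are transcribed within a short time of a growth factor or stress signal and do not need new protein synthesis.

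A gene is called higher or lower here where its summed tags, per total, differed at least 2-fold between the days. Levels are the authors' TPM, in which each library's tags are brought to the same fixed total. Brackets after a fold hold its exact 95% interval (Clopper-Pearson), which covers the counting error of tags only. Tags are PCR reads and not independent molecules. Values of single libraries are not in the tables, so the spread between replicates could not be computed, no p-value is given, and a difference carried by 1 library of the 4 could not be told apart from a difference in all of them. A higher or lower level in bulk RNA can likewise mean more or fewer cells of a type or more or less RNA per cell, and these cannot be told apart here.

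Most genes listed at both days stayed within 2-fold. Of the 1285 genes, 124 were higher at day 10 (9.65%), 67 were lower (5.21%) and the other 1094 (85.1%) were neither. The median gene was 1.11-fold higher, or 0.15 on the log2 scale. With the folds centred on that median, 87 genes were higher and 88 lower, so the excess of higher genes (64.9% of the called genes, against 49.7% after centring) depends on the scaling. The called differences included 27 genes at least 4-fold higher and 9 at least 4-fold lower. Membership required that a gene passed the authors' filter against day 1 at both days, so a gene that was back near its day 1 level at either day is not among the 1285.

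**Figure D1:**
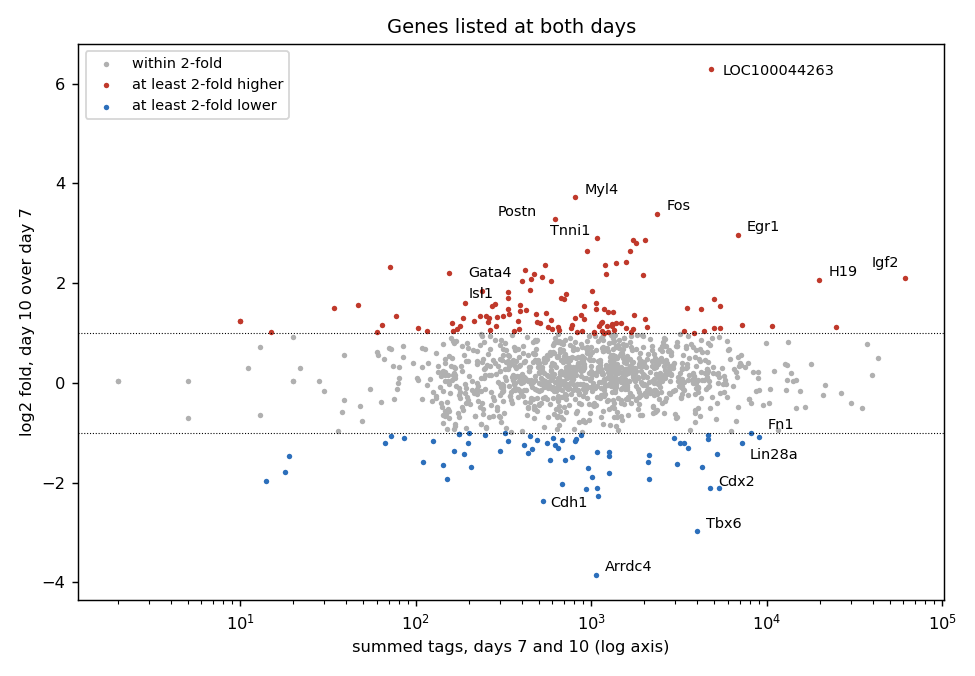
Each point is a gene listed at both days, with its tags summed over the 8 libraries (x, log axis) and its log2 fold, day 10 over day 7 (y); dotted lines mark 2-fold. Red points are the 124 higher genes and blue points the 67 lower ones; 2 genes with 0 tags at both days are not drawn.

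The immediate early genes Fos and Egr1 were among the steepest increases. Egr1 (Entrez Gene 13653), a zinc finger transcription factor, stood at 33.7 TPM at day 7 and 263 TPM at day 10, a 7.81-fold higher level (7.25 to 8.42). Fos (14281), a component of the AP-1 transcription factor, went from 8.99 to 94.4 TPM, a 10.5-fold higher level (9.11 to 12.2). The high Fos level belongs to day 10 rather than to a steady course, since Fos was back at 6.38 TPM at day 14. Egr1 was at 77.7 TPM at day 1 and 12.7 TPM at day 4. It has no day 14 value, so its course after day 10 is not known. Jun, the partner of Fos in AP-1, stood at 46.3 TPM and 91.6 TPM, a fold of 1.98 (1.84 to 2.13), just under the limit.

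Most other immediate early genes with values at both days stayed within 2-fold. Of 40 on the list, 10 were listed at both days, with 2 higher, 1 lower and 7 within 2-fold. The higher and lower shares were 20% and 10%, against 9.65% and 5.21% of all genes. The median log2 fold of the 10 was -0.07, against 0.15 over all genes listed at both days. The lower member was Errfi1, a feedback inhibitor of EGF receptor signalling, at 16.8 TPM at day 7 and 7.34 TPM at day 10 (2.29-fold lower, 1.91 to 2.76). The MAP kinase phosphatase gene Dusp6 stood at 182 TPM and 107 TPM, within 2-fold. Another 10 members were listed at day 10 and not at day 7. Among these were the orphan nuclear receptor gene Nr4a1 at 153 TPM, the AP-1 gene Fosb at 41.6 TPM, the mRNA decay factor gene Zfp36 at 19 TPM and the cytokine signalling inhibitor gene Socs3 at 15.8 TPM. Their day 7 levels are not known from these tables.

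The stretch before the Fos start site is shown because Fos had the larger fold of these genes. It spans the 250 bases upstream at chr12:85473640-85473889 (RefSeq, GRCm38.p6, plus strand), and the capitals mark TGACGT, the core of a cAMP response element, searched on both strands.
Fos: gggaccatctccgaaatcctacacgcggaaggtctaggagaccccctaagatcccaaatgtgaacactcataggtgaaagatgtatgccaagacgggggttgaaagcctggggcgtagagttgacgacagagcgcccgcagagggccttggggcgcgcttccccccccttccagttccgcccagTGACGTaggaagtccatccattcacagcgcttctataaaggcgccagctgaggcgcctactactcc
The motif occurred once in the Fos window and in 6.47% of the 32851 mouse promoters in the same table. Among the 76 genes singled out in these results, 52 had a promoter there. TGACGT was present for 3 of the 31 higher ones, Fos, Isl1 and Ltbp1, and for 1 of the 21 lower ones, Errfi1.

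Regulators of the heart lineage stood higher at day 10. Of 29 cardiac transcription factor genes, 9 were listed at both days, and 6 of these were higher and 0 lower, where 9.65% of all genes were higher. Their median log2 fold was 1.20. Gata4 (14463) was at 3.43 TPM at day 7 and 14.2 TPM at day 10, a 4.14-fold higher level (3.24 to 5.36) that rests on 80 and 325 tags. Isl1 (16392) was at 3.21 and 11.4 TPM, a 3.54-fold higher level (2.73 to 4.64). Both genes had been at 0 TPM at day 1, and at day 14 they stood at 15.4 TPM and 22.2 TPM.

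The other higher members of this list were Meis2, Foxc1, Smarcd3 and Hand1. The homeobox gene Meis2 was at 60.0 TPM and 174.9 TPM at days 7 and 10 (2.91-fold higher, 2.74 to 3.10). Foxc1, a forkhead gene of paraxial and cardiac mesoderm, was at 2.83 and 7.21 TPM, and Smarcd3, a chromatin remodelling subunit of the developing heart, was at 18.2 and 41.8 TPM. Hand1, a basic helix-loop-helix gene of the left ventricle and extraembryonic mesoderm, was at 5.35 and 11.4 TPM and was down to 3.48 TPM at day 14. After centring Hand1 was within 2-fold and 5 members were higher, and 2 of those at or above the median tags were higher. Tbx3, Irx3 and Hey1 stayed within 2-fold. Meis1, whose symbol is given only in its description and which was singled out after its values were seen, went from 10.7 to 77.5 TPM, a 7.27-fold higher level (6.36 to 8.33).

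Sarcomere genes with values at both days were at low levels at day 7, from 2.40 TPM (Myom1) to 12.6 TPM (Tpm2). Of 32 sarcomere genes, 5 were listed at both days, of which 2 were higher (40%, against 9.65% of all genes) and 0 lower. Their median log2 fold was 0.91. Myl4 (17896), the atrial essential light chain of myosin, was at 2.48 TPM at day 7 and 32.8 TPM at day 10, a 13.2-fold higher level (10.1 to 17.5). Tnni1 (21952), the slow skeletal troponin I that the embryonic heart also uses, was at 5.57 and 41.6 TPM, a 7.47-fold higher level (6.21 to 9.04). Both had 0 TPM at day 1, and both stood higher again at day 14, at 93.2 and 61.7 TPM. Tpm2, Nexn and Myom1 stayed within 2-fold, with Nexn, an actin-binding protein of the Z disc, at 9.76 and 17.1 TPM.

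A further 8 sarcomere genes were listed at day 10 with no day 7 value. Among them were Myl7, the atrial regulatory light chain, at 29.7 TPM and Tnnt2, cardiac troponin T, at 8.78 TPM. Tpm1, also among the 8, was at 119 TPM at day 10 and already at 55.5 TPM at day 1. Of the 3 calcium handling and ion channel genes listed at both days, 0 were lower and 1, Slc8a1, was higher (33.3%, against 9.65% of all genes). This gene encodes the sodium-calcium exchanger, and it stood at 9.55 TPM at day 7 and 50.6 TPM at day 10 (5.30-fold higher, 4.59 to 6.14). It had already been at 9.13 TPM at day 4, so its level was nearly flat from day 4 to day 7. The calcium channel subunit genes Cacna1c (4.84 and 8.17 TPM) and Cacna1g (3.47 and 4.37 TPM) stayed within 2-fold.

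**Figure D2:**
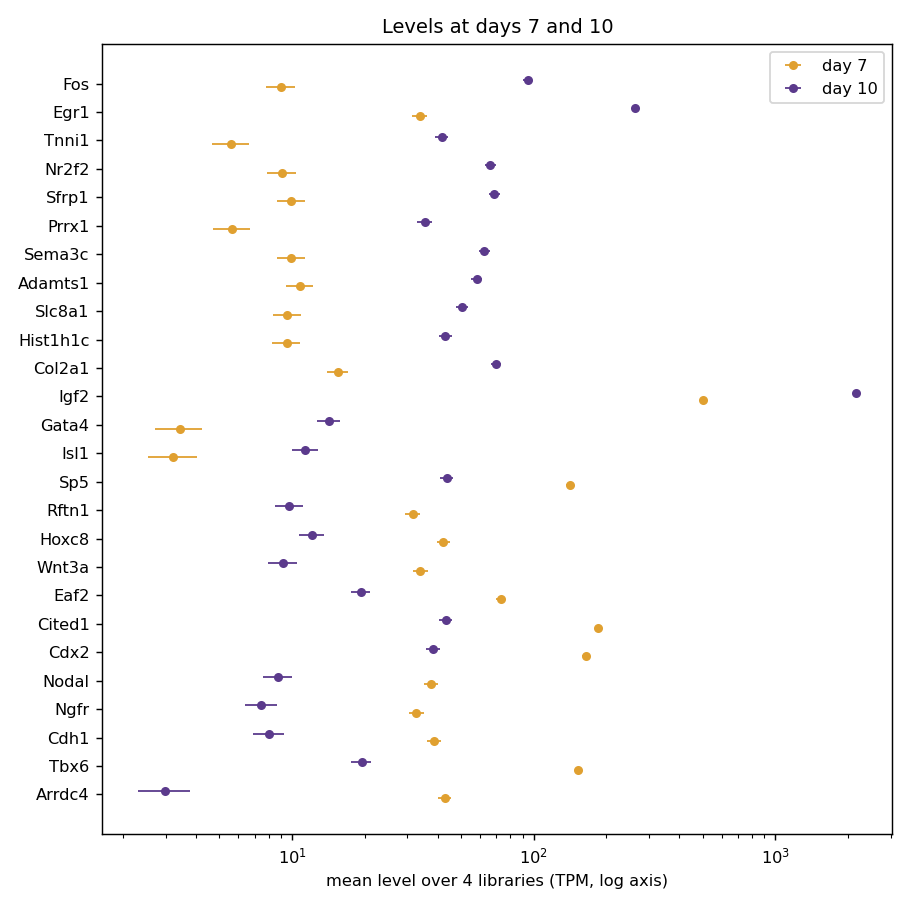
Mean level over 4 libraries in TPM (x, log axis) at day 7 and day 10 for the 12 largest increases and 12 largest decreases among the more abundant genes, together with Gata4 and Isl1; bars are exact Poisson 95% intervals of the summed tags. Fos and Egr1 lie furthest to the right of their day 7 values and Arrdc4 and Tbx6 furthest to the left.

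Tagln and Acta2, contractile genes of smooth muscle, were lower at day 10. Of 16 genes on the smooth muscle list, 5 were listed at both days, with a median log2 fold of -0.94. The 2 lower and 1 higher ones made up 40% and 20%, against 5.21% and 9.65% of all genes. Tagln (21345), the actin-binding protein transgelin, went from 164 to 60.6 TPM, a 2.70-fold lower level (2.54 to 2.88), and Acta2 (11475), smooth muscle actin, went from 137 to 63.1 TPM, a 2.17-fold lower level (2.04 to 2.31). Myl9, the regulatory light chain of smooth muscle, stood at 103 and 54.0 TPM, just within the limit. The higher member was the integrin gene Itga8, at 3.08 and 7.86 TPM. The skeletal muscle list had 1 gene listed at both days, the somite factor gene Dmrt2, at 3.77 and 2.53 TPM.

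Genes of the primitive streak and early mesoderm held the lowest median of the lists with at least 3 members. Of 28 members, 8 were listed at both days, and 6 were lower and 0 higher, where 5.21% of all genes were lower. Their median log2 fold was -1.59. The 6 were Cdx2, Nodal, Eomes, Aplnr and the Wnt genes Wnt3a and Sp5, which the Wnt list also holds. Cdx2 (12591), a homeobox regulator of posterior body formation, went from 165 TPM at day 7 to 38.4 TPM at day 10 (4.29-fold lower, 3.99 to 4.62). Nodal, a TGF-β family ligand that induces the streak, went from 37.6 to 8.74 TPM (4.30-fold lower, 3.69 to 5.04). Eomes, a T-box gene of streak and cardiac mesoderm, went from 39.4 to 15.1 TPM, and the apelin receptor gene Aplnr from 24.6 to 8.78 TPM. The platelet-derived growth factor receptor gene Pdgfra, at 8.87 and 9.22 TPM, and Sp8, at 36.0 and 22.4 TPM, stayed within 2-fold.

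Tbx6 (21389), a T-box gene of presomitic mesoderm, had the second largest decrease of the more abundant genes. It had been at 669 TPM at day 4, and it went from 153 TPM at day 7 to 19.4 TPM at day 10, a 7.87-fold lower level (7.13 to 8.71). Other members of the presomitic and paraxial list moved the opposite way. Of the 8 listed at both days, 3 were higher (37.5%, against 9.65% of all genes). These were Foxc1 and the paired-related homeobox genes Prrx1 and Prrx2, which mark limb and body wall mesenchyme. Prrx1 was at 5.65 TPM at day 7 and 35.4 TPM at day 10 (6.27-fold higher, 5.21 to 7.59), and Prrx2 was at 4.28 and 12.7 TPM. The somite and neural crest gene Pax3, at 44.8 and 59.8 TPM, stayed within 2-fold. A further 4 members were listed at day 7 only and 4 at day 10 only. Dll3, Lfng and Msgn1, genes of the segmentation clock and presomitic mesoderm, have no day 10 value. Meox1, Meox2, Foxc2 and Tbx18 have no day 7 value.

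The ligand genes Wnt3a and Fgf17 were lower, as were Sp5 and Etv5, which lie downstream of such ligands. Wnt3a (22416), a ligand that maintains the tailbud, went from 34.0 to 9.17 TPM (3.70-fold lower, 3.18 to 4.33). Sp5 (64406), a zinc finger gene that Wnt signalling activates, went from 141 to 43.6 TPM (3.24-fold lower, 3.01 to 3.48). Fgf17, a ligand of the FGF8 subfamily, went from 23.6 to 5.77 TPM (4.08-fold lower, 3.37 to 4.98), and Etv5, an ETS factor downstream of FGF receptors, from 101 to 44.1 TPM (2.30-fold lower, 2.13 to 2.48). Wnt7a, a ligand gene that the Wnt list does not hold, was lower too, with a log2 fold of -1.17. Other ligand genes on the Wnt and FGF lists stayed within 2-fold. Among them were Wnt5a (51.0 and 32.8 TPM), Wnt6 (817 tags at day 7, fold 0.974), Fgf9 (6.94 and 6.68 TPM) and Fgf10 (16.4 and 11.9 TPM).

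The upstream 250 bases of Sp5 are shown beside this decrease, at chr2:70474673-70474922 (RefSeq, GRCm38.p6, plus strand). Capitals mark CTTTGAT, a form of the site that LEF and TCF factors of the Wnt pathway recognise, searched on both strands.
Sp5: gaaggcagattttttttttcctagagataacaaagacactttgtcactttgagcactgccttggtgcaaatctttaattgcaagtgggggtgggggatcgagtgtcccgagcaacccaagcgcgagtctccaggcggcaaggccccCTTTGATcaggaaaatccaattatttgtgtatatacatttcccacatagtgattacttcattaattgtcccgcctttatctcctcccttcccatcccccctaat
The motif was present once in this window and in 3.21% of all promoters of the table. It occurred for 1 of the 21 lower genes singled out, Sp5, and for 1 of the 31 higher ones, Nr2f2.

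Most genes of both pathway lists stayed within 2-fold. Of 15 Wnt pathway genes listed at both days, 12 stayed within 2-fold, with a median log2 fold of -0.00. The 1 higher and 2 lower ones made up 6.67% and 13.3%, against 9.65% and 5.21% of all genes. After centring, 4 Wnt genes were lower, Lgr5 and Rspo3 being added. The higher gene was Sfrp1 (20377), which encodes a secreted inhibitor that binds Wnt ligands. It was at 9.89 TPM at day 7 and 68.8 TPM at day 10 (6.95-fold higher, 6.05 to 8.02) and reached 224 TPM at day 14. The receptor gene Fzd10 stood at 372 and 260.5 TPM and Fzd2 at 102 and 160 TPM, both within 2-fold. Of 9 FGF pathway genes, 2 were lower and 1 higher (22.2% and 11.1%, against 5.21% and 9.65% of all genes). Their median log2 fold was -0.49. The higher gene was Flrt3, a leucine-rich repeat protein that binds FGF receptors and Unc5 receptors, at 25.4 and 62.1 TPM.

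Hox genes, by contrast, changed little between the days. Of 39 genes, 23 were listed at both days, with 22 within 2-fold and a median log2 fold of -0.07. Among the 23, 1 was lower (4.35%, against 5.21% of all genes) and 0 were higher (against 9.65%). The lower gene was Hoxc8 (15426), which went from 42.3 to 12.1 TPM, a 3.49-fold lower level (3.05 to 4.01). The rest ran from Hoxd1, at 6.47 and 3.67 TPM, to Hoxa10, at 23.8 and 38.8 TPM. Hoxd10 was at 93.9 and 102 TPM. Its neighbours in the HoxC cluster, Hoxc6 (43.1 and 38.0 TPM) and Hoxc10 (9.08 and 12.5 TPM), stayed within 2-fold while Hoxc8 did not.

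Most pluripotency genes stayed within 2-fold, and the more abundant of those that did not were lower. Of 36 genes, 12 were listed at both days, with a median log2 fold of -0.47. The 3 lower and 1 higher ones made up 25% and 8.33%, against 5.21% and 9.65% of all genes. Lin28a, an RNA-binding protein that blocks let-7 maturation, went from 216 to 94.4 TPM (2.29-fold lower, 2.18 to 2.41). Pou5f1, which encodes Oct4, went from 235 to 117 TPM, and its fold of 2.00 (1.91 to 2.10) lies on the limit. Sall1, a zinc finger gene of stem cells and kidney, went from 134 to 65.1 TPM (2.06-fold lower, 1.93 to 2.19). The higher member, Eras, had 9 tags at day 7 and 25 at day 10. Sall4 (67.8 and 44.7 TPM) and Dnmt3b (25.7 and 18.7 TPM) stayed within 2-fold, so transcripts of the undifferentiated state were still counted at day 10. Their day 1 levels had been higher, at 145 and 264 TPM, as had those of Pou5f1 (1489 TPM) and Lin28a (648 TPM). Sall1, by contrast, was at 20.1 TPM at day 1. Cited1, a transcriptional co-activator that was abundant at day 1 (597 TPM), went from 185 to 43.2 TPM (4.28-fold lower, 3.99 to 4.59). It was among the 12 largest decreases, as were Eaf2, an elongation factor partner gene, at 72.9 and 19.2 TPM, and Rftn1, a lipid raft protein gene, at 31.6 and 9.74 TPM.

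**Figure D3:**
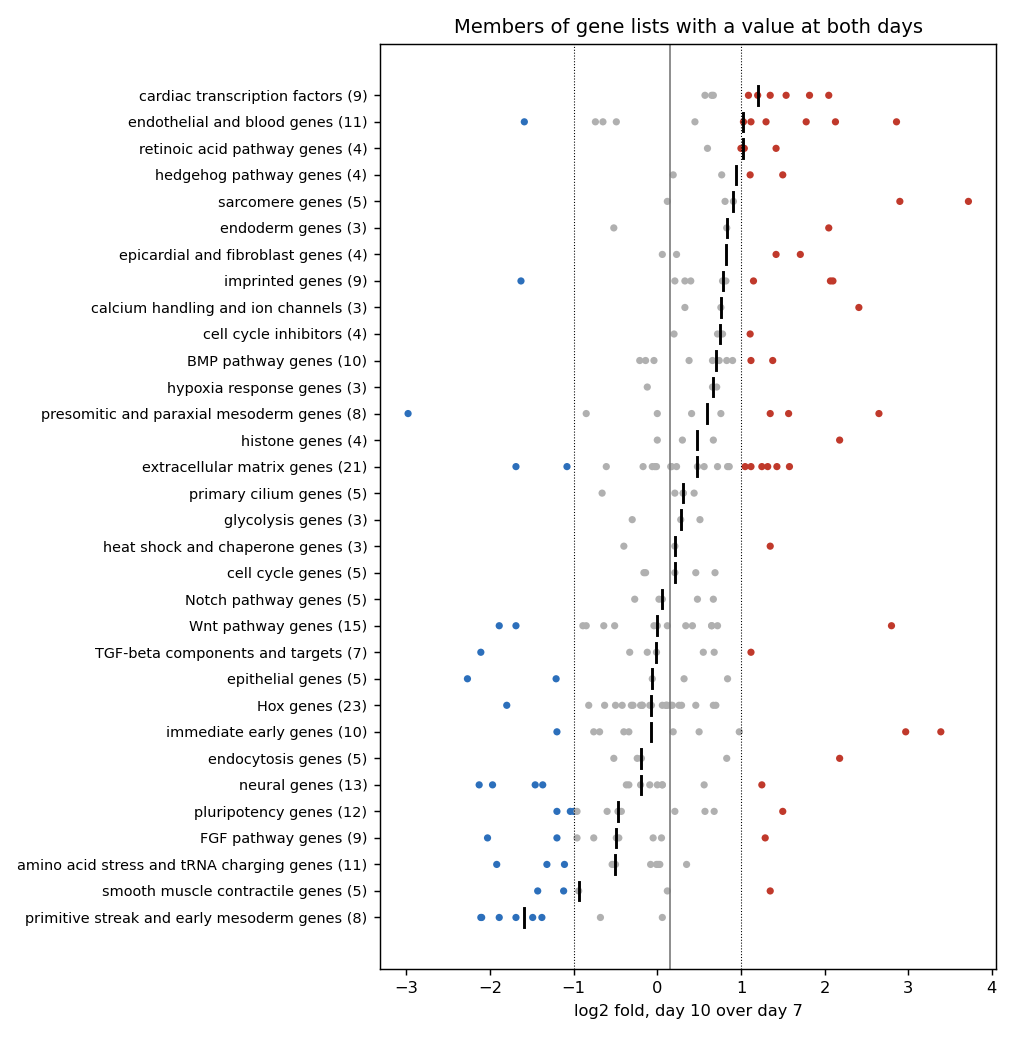
Log2 fold, day 10 over day 7 (x), of each member of the gene lists with at least 3 genes listed at both days; the number of such genes is in brackets. Black bars are list medians, the grey line is the median of all 1285 genes (0.15) and dotted lines mark 2-fold. Cardiac transcription factors lie at the top with a median of 1.20 and streak genes at the bottom with -1.59.

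Tie1, Cdh5 and other endothelial genes were higher, and the early blood regulator Lmo2 was lower. Of 41 endothelial and blood genes, 11 were listed at both days, with 6 higher, 1 lower and a median log2 fold of 1.03, where 9.65% of all genes were higher and 5.21% lower. After centring 4 were higher, Nrp1 and Flt1 having dropped out, and 2 of those at or above the median tags were higher. Tie1 (21846), a receptor kinase of endothelium, was at 4.24 TPM at day 7 and 18.5 TPM at day 10 (4.37-fold higher, 3.50 to 5.49). Cdh5, the cadherin of endothelial junctions, was at 6.98 and 24.0 TPM (3.44-fold higher, 2.88 to 4.12), and the ETS factor gene Fli1 was at 3.25 and 8.04 TPM. Tie1 and Cdh5 were lower again at day 14, at 7.93 and 8.98 TPM. Nr2f2 (11819), a nuclear receptor of veins and atria, was at 9.08 and 66.1 TPM (7.28-fold higher, 6.31 to 8.45) and did not follow them, with 184 TPM at day 14.

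Nrp1, a co-receptor for VEGF and semaphorins, was at 28.4 and 61.7 TPM. Flt1, a VEGF receptor gene, was the remaining higher member, on 20 and 40 tags. Lmo2, a LIM-only adaptor of blood and endothelial progenitors, went from 68.3 to 22.7 TPM, a 3.01-fold lower level (2.72 to 3.33). The haematopoietic genes Runx1 (11.4 and 7.25 TPM) and Kit (26.2 and 15.7 TPM) stayed within 2-fold. A further 9 members were listed at day 10 and not at day 7, such as Egfl7 at 42.2 TPM, Emcn at 13.8 TPM and Pecam1 at 7.64 TPM. No globin or heme synthesis gene was listed at both days, and the embryonic globin gene Hba-x, at 118 TPM at day 10, has no day 7 value.

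Matrix genes differed in direction. Of 58 extracellular matrix genes, 21 were listed at both days, and their median log2 fold was 0.48. The 6 higher and 2 lower ones made up 28.6% and 9.52%, against 9.65% and 5.21% of all genes. Among genes at or above the median tags, 2 were higher and 1 lower, and after centring Vcan and Ltbp1 were within 2-fold. The fibrillar collagen genes Col1a2 (3.08 and 9.22 TPM) and Col5a2 (14.7 and 39.5 TPM; 2.70-fold higher, 2.38 to 3.07) were higher, as were Col12a1, Emilin1, Ltbp1 and the proteoglycan gene Vcan (16.2 and 33.5 TPM). Col1a1, the fibrillar partner of Col1a2, stood at 3.64 and 4.28 TPM, a fold of 1.18 (0.871 to 1.59), within 2-fold. Fn1, fibronectin, went the opposite way from 264 to 125 TPM (2.12-fold lower, 2.02 to 2.21), and Col13a1, a transmembrane collagen, from 6.77 to 2.10 TPM. Basement membrane genes stayed within 2-fold, with Col4a1 at 73.8 and 82.4 TPM, Lamb1 at 85.5 and 84.8 TPM and Nid1 at 10.2 and 18.3 TPM. Postn and Tnc, matrix genes of valves and fibroblasts whose symbols are given only in their descriptions, were singled out after their values were seen. Postn went from 2.53 to 24.6 TPM (9.73-fold higher, 7.43 to 13) and Tnc from 3.81 to 10.7 TPM.

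Among the 12 largest increases were the matrix protease gene Adamts1, at 10.8 and 58.1 TPM (5.40-fold higher, 4.72 to 6.21), and Col2a1 (12824), the main collagen of cartilage, at 15.5 and 69.8 TPM (4.52-fold higher, 4.03 to 5.08). Sox9, the transcription factor of cartilage and valve mesenchyme that activates Col2a1, was at 9.55 and 34.3 TPM, and Alx4, a homeobox gene of limb and skull mesenchyme, at 3.13 and 15.1 TPM. Snai2, a repressor of epithelial genes, was at 6.60 and 17.4 TPM. These 3 regulators were picked after their values were seen. Of 4 epicardial and fibroblast genes listed at both days, 2 were higher (50%, against 9.65% of all genes) and 0 lower. These were Aldh1a2, the retinoic acid synthesising enzyme (15.7 and 41.8 TPM; 2.67-fold higher, 2.36 to 3.02), and Pdgfrb, the receptor of pericytes and fibroblasts (3.43 and 11.2 TPM; 3.28-fold higher, 2.54 to 4.27).

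Epithelial genes did not move together. Of 5 listed at both days, 2 were lower (40%, against 5.21% of all genes) and 0 higher. Cdh1 (12550), E-cadherin of epithelial junctions, went from 38.6 to 7.99 TPM (4.83-fold lower, 4.11 to 5.69), and Krt18, a simple epithelial keratin, from 95.9 to 41.4 TPM (2.32-fold lower, 2.15 to 2.50). Krt8, the keratin that pairs with Krt18, stayed at 103 and 98.4 TPM, and the grainyhead factor gene Grhl3 was at 17.0 and 30.4 TPM. The epithelial gene Epcam, at 18.1 TPM at day 10, has no day 7 value. The mesenchymal regulator Twist1 was at 75.9 and 129 TPM, within 2-fold.

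No gene of the BMP, retinoic acid or hedgehog lists was lower, and each list held higher genes, of which 1 per list was left after centring. Of 10 BMP pathway genes, 2 were higher (20.0%, against 9.65% of all genes) and 0 lower, with a median log2 fold of 0.70. Id2, a BMP-induced inhibitor of helix-loop-helix factors, was at 339 TPM at day 7 and 739 TPM at day 10 (2.18-fold higher, 2.12 to 2.24), and Bmper, an extracellular BMP modulator, was at 5.82 and 15.2 TPM. The ligand gene Bmp4 (36.0 and 60.0 TPM), Id1 (92.8 and 165 TPM) and the inhibitory Smad6 (23.3 and 43.5 TPM) stood higher but within 2-fold. With the folds centred on the median of all genes, Id2 fell within 2-fold too.

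Of 4 retinoic acid pathway genes, 3 were higher (75%, against 9.65% of all genes). These were Aldh1a2 and the retinoic acid binding protein genes Crabp1 (48.1 and 98.7 TPM; fold 2.05, 1.91 to 2.21) and Crabp2 (55.3 and 111 TPM; fold 2.00, 1.87 to 2.14), and both Crabp genes lay within 2-fold after centring. Of 4 hedgehog pathway genes, 2 were higher (50%, against 9.65% of all genes). These were the co-receptor genes Cdon (39.8 and 112 TPM, 2.82-fold higher, 2.62 to 3.04) and Gas1 (68.5 and 148 TPM, 2.16-fold, 2.04 to 2.30). The third co-receptor gene, Boc, stood at 24.2 and 41.2 TPM and the transcription factor gene Gli3 at 35.8 and 40.8 TPM. After centring, Cdon was still more than 2-fold higher and Gas1 was not.

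The TGF-β pathway is named in the study's title. Of 7 genes on the list of its components and targets that were listed at both days, 1 was higher and 1 lower. Each made up 14.3%, against 9.65% and 5.21% of all genes, and the median log2 fold was -0.01. The deposited pathway annotation draws this pathway differently, with 15 genes listed at both days and a median log2 fold of 0.66. Of these, 3 were higher (20%, against 9.65% of all genes) and 2 lower (13.3%, against 5.21%). The called genes of that annotation include the BMP target Id2, Flrt3 and Nodal. On the first list, the lower gene was Nodal and the higher gene was Ltbp1, the latent TGF-β binding protein, at 7.75 and 16.8 TPM (2.17-fold higher, 1.81 to 2.60), which lay within 2-fold after centring. Smad3, the signal transducer, was at 52.3 and 52.1 TPM, and the ligand gene Tgfb2 at 20.9 and 19.2 TPM. Of 5 primary cilium genes, 0 were higher and 0 lower, against 9.65% and 5.21% of all genes. Kif3a, a subunit of the anterograde ciliary motor, was at 45.2 and 56.2 TPM and Arl13b, a ciliary GTPase, at 16.5 and 22.3 TPM. Among 5 endocytosis genes, 1 was higher (20%, against 9.65% of all genes) and 0 lower. The higher member was Cav1, the coat protein of caveolae, at 3.73 and 16.9 TPM (4.53-fold higher, 3.58 to 5.78), and it reached 61.3 TPM at day 14.

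The imprinted growth factor gene Igf2 carried the most tags of all genes listed at both days. Of 9 imprinted genes listed at both days, 3 were higher and 1 lower (33.3% and 11.1%, against 9.65% and 5.21% of all genes). Their median log2 fold was 0.78. Igf2 (16002), the fetal growth factor, was at 501 TPM at day 7 and 2147 TPM at day 10 (4.29-fold higher, 4.2 to 4.37), from 11697 and 49158 tags. H19 (14955), the maternally expressed RNA that shares its enhancers with Igf2, was at 166 and 697 TPM, a 4.2-fold higher level (4.05 to 4.35). The intervals of these neighbours overlap. Plagl1, a zinc finger gene also known as Zac1, was at 145 and 321 TPM (2.22-fold higher, 2.13 to 2.31), and it reached 1105 TPM at day 14, but lay within 2-fold after centring.

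Phlda2, a maternally expressed growth-limiting gene of the placenta, was the lower member, with 2335 tags at day 7 and 739 at day 10 (3.10-fold lower, 2.85 to 3.37). Peg10 (592 and 1015 TPM), Peg3 (37.4 and 47.0 TPM) and Ndn (147 and 193 TPM), which are expressed from the paternal copy, stayed within 2-fold, as did the receptor gene Igf2r at 48.1 and 85.0 TPM. The imprinted genes therefore did not share 1 direction.

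**Figure D4:**
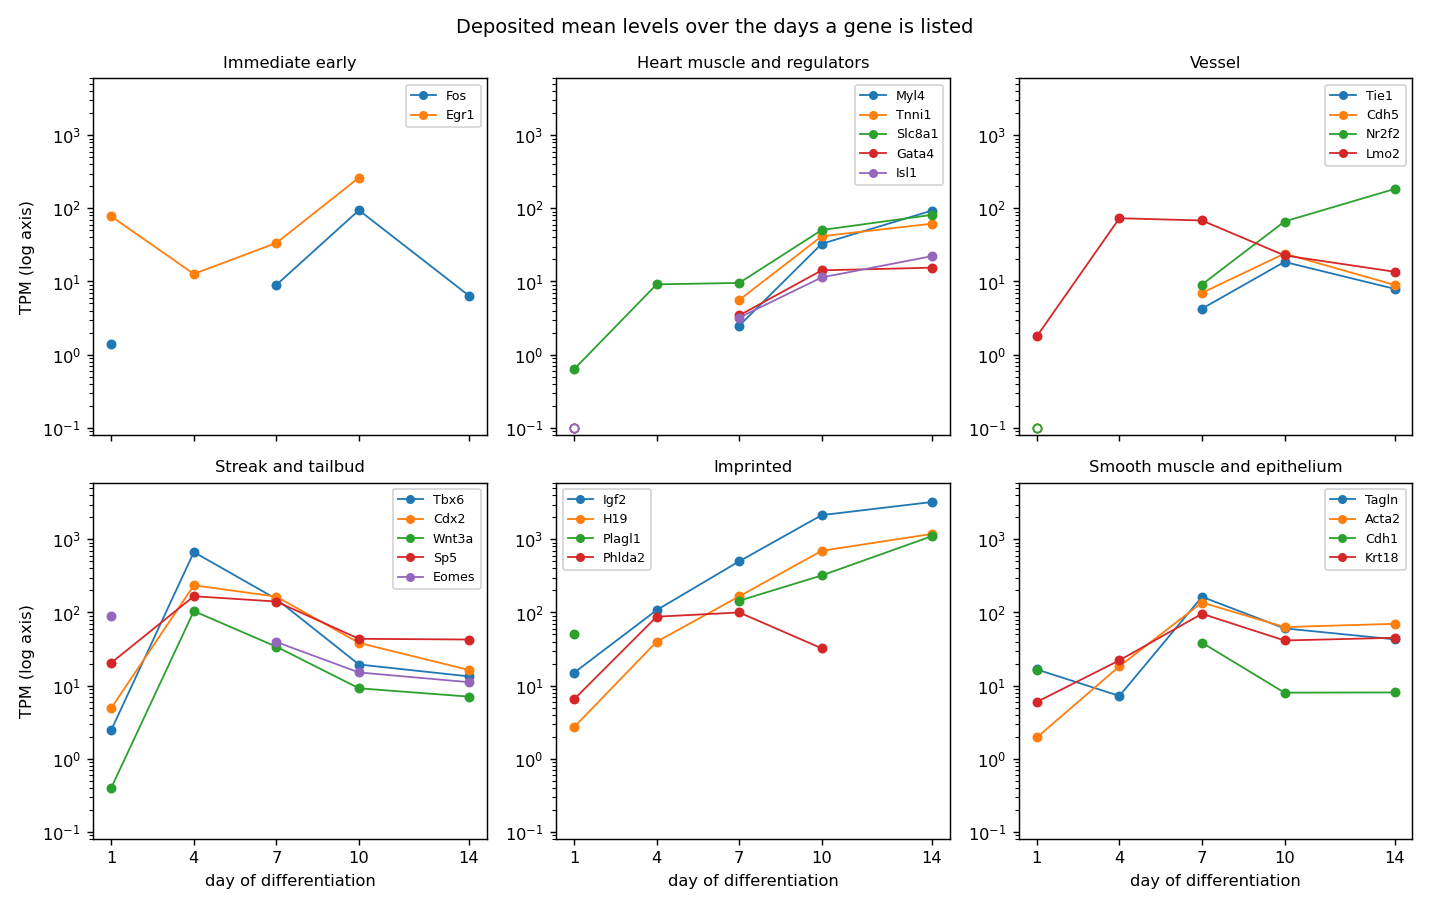
Deposited mean levels (TPM, y, log axis) of named genes against the day of differentiation (x) at days 1, 4, 7, 10 and 14. Lines join neighbouring days at which a gene is listed, and open points at 0.1 TPM stand for 0 tags at day 1 and overlap where several genes share that value. Fos is at 94.4 TPM at day 10 and 6.38 TPM at day 14, while Igf2 and Myl4 stand higher at day 14 than at day 10.

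The largest decrease of all was that of Arrdc4 (66412), an arrestin family gene that, like its relative Txnip, is transcribed in response to intracellular glucose metabolites. It went from 42.7 TPM at day 7 to 2.97 TPM at day 10, a 14.4-fold lower level (11.2 to 18.7) from 998 and 68 tags. Day 7 was the high point of its course, with 11.7 TPM at day 1, 1.96 TPM at day 4 and 1.93 TPM at day 14. Txnip, at 37.0 TPM, was listed at day 7 and not at day 10, and Arrdc3, at 31.5 TPM, was listed at day 10 and not at day 7.

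The 250 bases upstream of the Arrdc4 start are shown as those of the gene with the largest decrease, at chr7:68749239-68749488 (RefSeq, GRCm38.p6, minus strand). Capitals mark the E-box CACGTG and the CCAAT box, each searched on both strands, so that the reverse form ATTGG is marked too.
Arrdc4: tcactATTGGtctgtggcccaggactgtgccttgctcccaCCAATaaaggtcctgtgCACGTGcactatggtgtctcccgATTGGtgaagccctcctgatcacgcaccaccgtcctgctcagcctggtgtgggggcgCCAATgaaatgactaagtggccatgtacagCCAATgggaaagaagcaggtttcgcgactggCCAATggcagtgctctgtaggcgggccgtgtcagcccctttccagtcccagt
CACGTG occurred once and the CCAAT box 6 times in this window. Over all promoters of the table, 6.02% held CACGTG and 33.8% held at least 1 CCAAT box. Among the genes singled out, CCAAT was present for 12 of the 21 lower ones and 11 of the 31 higher ones. A CArG box (CC, then 6 bases of A or T, then GG) was also searched and is not marked above. It was present for 2 of the 21 lower ones, Arrdc4 and Cited1, and 1 of the 31 higher ones, Igf2. Over all promoters the share was 1.47%.

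Asns, Slc7a3 and Chac1, genes of the response to amino acid shortage, were lower at day 10. Of 11 genes of the amino acid stress response and tRNA charging, 3 were lower (27.3%, against 5.21% of all genes) and 0 higher, with a median log2 fold of -0.50. Asns, asparagine synthetase, went from 87.5 to 40.5 TPM (2.16-fold lower, 2.00 to 2.34). The arginine and lysine transporter gene Slc7a3 went from 14.1 to 5.68 TPM, and the glutathione-degrading enzyme gene Chac1 from 5.14 to 1.35 TPM. The tRNA charging genes Gars, Lars, Aars, Tars and Yars stayed within 2-fold. Among 103 genes annotated to metabolic pathways, 4 were lower (3.88%, against 5.21% of all genes), namely Bcat1, Arg1, Dgkk and Asns. The 6 higher ones made up 5.83%, against 9.65% of all genes. The 3 glycolysis genes and 3 hypoxia genes listed at both days all stayed within 2-fold, as did all 5 cell cycle genes, among them Plk1 at 76.8 and 69.8 TPM and the cyclin gene Ccnd2 at 168 and 195 TPM. Among 4 histone genes, 1 was higher (25%, against 9.65% of all genes) and 0 lower. The higher member was the linker histone gene Hist1h1c, at 9.51 and 43.1 TPM (4.53-fold higher, 3.91 to 5.26). Its level at day 14 was 27.7 TPM.

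Neural genes were lower in part. Of 13 listed at both days, 4 were lower and 1 higher (30.8% and 7.69%, against 5.21% and 9.65% of all genes). Their median log2 fold was -0.20. With log2(TPM + 1), 2 were lower and 0 higher, and 1 of those at or above the median tags was lower. Ngfr, the low-affinity neurotrophin receptor, was the most abundant lower member, going from 32.7 to 7.47 TPM (4.37-fold lower, 3.70 to 5.19). Nefm, a neurofilament subunit gene, went from 5.10 to 1.97 TPM, and the lower genes Nefl and Foxd3 rested on 12 and 14 tags at day 7. The higher member, Stmn3, had 3 and 7 tags, and the intervals of Foxd3 and Stmn3 include a fold of 1. Sox11 (274 and 286 TPM), Stmn2 (12 and 11.3 TPM) and Ncam1 (25.8 and 38.0 TPM) stayed within 2-fold. Of 3 endoderm genes listed at both days, 1 was higher (33.3%, against 9.65% of all genes) and 0 lower. The higher member was Gata4, which is shared with heart. Lrp2, an endocytic receptor gene, stayed within 2-fold (7.54 and 13.4 TPM).

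Several guidance molecules, a group taken from the tables' own pathway annotation, had high folds. Of 43 genes annotated to axon guidance, 8 were higher (18.6%, against 9.65% of all genes), with a median log2 fold of 0.29. The 2 lower ones made up 4.65%, near the 5.21% of all genes. After centring Nrp1, also among the 8, was within 2-fold, and Efna5 (log2 fold 1.15) lay near the limit. Sema3c (20348), a secreted semaphorin that guides neural crest into the cardiac outflow tract, was at 9.94 and 62.5 TPM (6.29-fold higher, 5.47 to 7.26). The netrin receptor gene Unc5c was at 3.81 and 19.8 TPM, Sema6d at 6.90 and 22.5 TPM, and the ephrin gene Efna5 at 17.6 and 39.1 TPM. The ephrin gene Efna1 and the Eph receptor gene Epha1 were lower, at 24.1 and 10.8 TPM and at 13.5 and 5.11 TPM. This group was picked after its values were seen, and its annotation also holds Eras, whose link to guidance is not shown by these tables.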

How the data were processed

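Levels at days 7 and 10 were read from the 2 deposited tables that compare each of these days with day 1, joined on gene ID; day 1 ratios were not used. The deposited mean raw tag counts, times 4 libraries, were whole for 100% of genes and gave the tag sums. TPM values are those the authors deposited, in which 0.01 stands for 0 tags. Genome build mm9 is named in the submitters' processing notes; no source used here gives the aligner. Per the submitters' design text, the tables hold only genes that passed an FDR filter, and libraries were made, per the labels' protocols, with Illumina's tag profiling kit (protocol 2.1B). Smaller depth widens the counting intervals, which are exact 95% intervals; tags are PCR reads and not independent molecules.

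Folds are tag sums per group total (a mean of 5.84e+06 and 5.72e+06 tags per library at days 7 and 10, implied by the deposited counts and TPM), with sums under 3 tags set to a floor of 3 (0.128 and 0.131 TPM); 5 genes are at or under it on both days. The call limit of 2-fold, the 38 gene lists and the rule for singling out genes (the 12 largest increases and decreases at or above the median of 894 summed tags, the 3 marker genes, up to 5 called members per list) were chosen with earlier results of these data known. Other genes named in the text were picked after their values were seen. Genes were matched by the tables' symbol column, blank for 43 genes, which the naming rule leaves out. Calls and intervals were checked on simulated counts that held counting error only, so the check does not cover spread between libraries or PCR. Python 3.11.15, scipy 1.17.1 and pandas 2.3.3 were used.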

Additional observations from a re-analysis of the deposited data

How the results depend on the processing

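No paired analysis was possible because the deposited tables hold means over the libraries of a day and no value of a single library; leaving out a replicate could not be run for the same reason. Among genes at or above the median tags, 56 were higher and 28 lower. With the counting interval wholly beyond 2-fold, 71 were higher and 36 lower; at a limit of 1.5-fold the counts were 288 and 146, and at 3-fold 38 and 22. These alternatives test fewer genes or shift the limit by construction. The deposited TPM gave 125 and 69, log2(TPM + 1) gave 97 and 51, centring gave 87 and 88, and the remaining alternatives gave 124 and 67. Of these, keeping the most abundant entry per symbol could not change the counts, because no symbol was duplicated. The deposited TPM rests on the same tags, so it could differ only through rounding and the floor. Of the 76 genes singled out, all kept their call with the deposited TPM. With log2(TPM + 1), Eras, Pou5f1, Nefl, Crabp2 and Hspa4l lost it, and after centring Gas1, Id2, Ltbp1, Crabp1, Crabp2 and Plagl1 did. With the interval beyond 2-fold 16 lost it, among them Foxc1, Itga8, Fli1, Col12a1, Emilin1 and Asns, and at 3-fold 35 did. Outside the 76, further genes lost theirs on centring, among them Hand1, Nrp1, Flt1 and Vcan. Reading blank symbols from descriptions, added after seeing the data, put Meis1 with the cardiac transcription factors (7 of 10 higher) and Postn and Tnc with the matrix genes (8 of 23 higher).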

Other observations

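A predicted gene without an assigned function, LOC100044263 in the deposited descriptions, had the largest fold of all 1285 genes. It counted 0 TPM at day 1, 2.66 TPM at day 7, 208 TPM at day 10 and 27.0 TPM at day 14, and its day 10 level was 78.3-fold higher than at day 7 (61.0 to 102, counting error only) on 62 and 4762 tags. It was singled out after its values were seen. Like Fos (6.38 TPM at day 14) and the endothelial genes Tie1 and Cdh5 (7.93 and 8.98 TPM at day 14), it was lower at day 14 than at day 10, whereas Myl4 and Igf2 were higher at day 14. Whether such day 10 levels come from all 4 libraries was not tested, since the tables hold no values of single libraries.

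The share of calls did not run evenly with tag count. Among the 324 genes with the fewest tags (up to 407 over both days), 12.3% were higher and 6.48% lower. In the next groups by tag count, of 320 genes each, 8.75% and 10.9% were higher and 5.62% and 3.12% lower. Among the 321 with the most (1884 or more), 6.54% were higher and 5.61% lower.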
